A study of Homo sapiens with 5 samples.

Results

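Oxidative phosphorylation was examined through 34 genes for subunits of its complexes I to V and for cytochrome c, of 3784 genes measured in T84 cells. A gene was taken when a probe set annotated to it alone had a symbol beginning with NDUF, UQCR, COX4, COX5, COX6, COX7, COX8, ATP5 or SDH, or was CYC1 or CYCS, and when the probe set exceeded an intensity of 20 on at least 1 array. Where a gene had several probe sets, the one with the highest mean over the 5 arrays was used. The rule found 36 genes, and 2 of them stayed at or below 20 on every array: NDUFA5, with 16 at most, and COX6A2, the heart and muscle form of a cytochrome c oxidase subunit, with -26 at most. The dimmest members inside the threshold were COX7A1 and NDUFB7, with 76 and 86 on their brightest array. The members comprise 6 subunits of complex I, 2 of complex II, 4 of complex III, 11 of complex IV and 10 of complex V, and CYCS.

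T84 is a human colon carcinoma cell line used as a model of intestinal epithelium. It was profiled on 5 Affymetrix arrays: 1 from cells without treatment, described as a pool, 2 from cells given IFN-gamma, a cytokine of activated lymphocytes, at 1000 U/ml for 6 h, and 2 from cells given the same dose for 18 h. The titles call the arrays biological replicates, with nothing on separate cultures, and p-values then cover only array-to-array spread, which may be technical. All groups share the cell line, a single tumour-derived line. The design sets expression without IFN-gamma beside that after 6 and 18 h of it.

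Oxidative phosphorylation takes place in the inner mitochondrial membrane. Complexes I and II pass electrons from NADH and succinate to ubiquinone, complex III passes them to cytochrome c, and complex IV to oxygen, while complexes I, III and IV pump protons that drive ATP synthesis by complex V. The subunits measured here are encoded in the nucleus, and those of complex IV surround a catalytic core that mitochondrial DNA encodes. Colonic epithelial cells are known to draw much of their ATP from this pathway, with butyrate as a fuel.

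The labels of some arrays are opposed by the genes that IFN-gamma is known to induce. CXCL10, a chemokine, reached an intensity of just 41 for the label 6 h replicate 1, and 1317 for the label untreated, 1149 for 6 h replicate 2, and 1260 and 1399 at 18 h. Both arrays are therefore called by their labels, and each comparison that rests on them is also given array by array or without 6 h replicate 1. The value range was widest on that array, where the SD over all 7018 probe sets was 410, against 245 to 350 on the others. All 12 intestinal epithelial markers looked for were measured, with summed intensities of 11375 (untreated), 15360 and 8480 (6 h) and 9006 and 12293 (18 h). Of 18 measured markers of fibroblasts, endothelium, T cells, B cells and macrophages, 3 (CD14, CD3G and TEK) were at or below 0 on all arrays and 3 exceeded 100 on some array (CD3E, COL1A1 and PECAM1), and the summed intensity of the 12 tested ones ran from 541 to 799. The part of these differences in the results was not tested. In RNA from whole cultures, fewer cells of a type and less RNA per cell cannot be told apart.

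The pathway was well represented on every array. The median intensity of the members was 522.5 without treatment by label, then 747 and 539.5 for 6 h and 552 and 529 for 18 h, and between 19 and 22 of the 34 lay among the brightest 10% of the tested probe sets of an array. Within the 4 arrays other than 6 h replicate 1, intensities stayed within 1.5-fold of each other for 22 of 34 members, against 36% of the 5029 tested probe sets. Among the 690 probe sets whose mean intensity reached the lower quartile of the members, 343.5, the share was 53%, and 20 of the 25 members among them stayed within that range. With all 5 arrays the count was 12 of 34, where 20.5% of all tested probe sets and 23.3% of the bright ones stayed as close.

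On the array labelled 6 h replicate 1 the subunits of complex IV stood apart from the other members. Of the 11, 10 were brighter there than on each of the 4 other arrays, as were 25% of the tested probe sets, and 8 were at least 1.5-fold brighter than on each of them. Over all members 11 of 34 met that 1.5-fold limit, where 6.78% of the tested probe sets did and 11% of the bright ones. Another 4 members, ATP5F1A, ATP5MC1, ATP5PO and SDHA, were dimmer there than on every other array, where 23.9% of the tested probe sets were. The summed intensity of the complex IV subunits was 9249 for untreated, 16715 and 8150 for 6 h and 9259 and 9673 for 18 h. For the other 23 members the sums were 13535, then 13920 and 12272, then 12025 and 12027. These sums are dominated by bright probe sets and serve only to set arrays side by side. The bright probe sets in general were raised on that array, with a median log2 difference of 0.21 from the array labelled untreated, against 1.00 for complex IV. After quantile normalization, which gives every array the same value range, the median of complex IV was 0.47 and that of the bright probe sets was -0.01. Of the 11, 3 (COX6C, COX7A1 and COX7B) stayed at least 1.5-fold above each other array, as did ATP5MC2, NDUFB7 and UQCRB outside complex IV. Over all members 6 of 34 did, where 7.62% of all tested probe sets did. Among the 25 bright members 4 did so, where 3.33% of the bright probe sets did. The count of 8 thus depends on the scaling. No replicate of that array shows the pattern, and the difference of 1 array has no replicate check. The summed intensity of the epithelial markers was also highest on it, with 8 of the 12 above the array labelled untreated and 4 below. Of the 690 bright probe sets 414 were above and 276 below. An excess on that array was not confined to complex IV. The 5 antioxidant genes described below summed to 1422 for untreated, 3197 and 1827 for 6 h and 1775 and 1409 for 18 h. On 6 h replicate 1, 3 of these 5 were above the array labelled untreated and 2 below. The citric acid cycle list was lower there, with 2328, then 2006 and 2463, then 2081 and 1777.

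**Figure D1:**
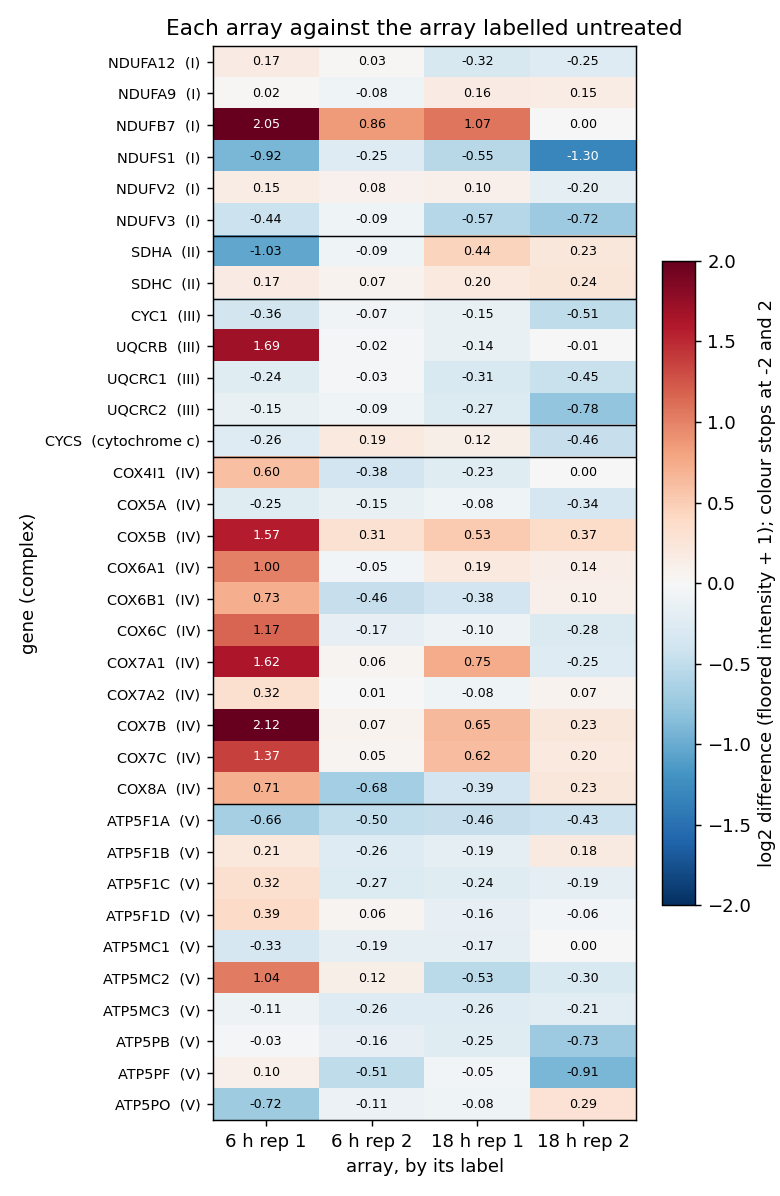
Log2 difference of each member from the array labelled untreated, for the 4 treated arrays, with genes grouped by complex; numbers in the cells are the differences. The first column holds the largest values, 2.12 for COX7B and 2.05 for NDUFB7, and 10 of the 11 complex IV subunits are above 0 there. The value for NDUFB7 depends on the floor, to which its value labelled untreated was raised.

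COX7B, a small membrane subunit of complex IV, gave 284 without treatment by label, 1238 in 6 h replicate 1, 299 in 6 h replicate 2, 447 in 18 h replicate 1 and 333 in 18 h replicate 2. The 6 h replicates thus lie 4.13-fold apart, and the 18 h arrays lie between them. COX5B, a zinc-binding subunit on the matrix side, had 562, then 1665 and 697, then 811 and 726, in the same order of arrays. All 4 arrays labelled as treated were above the array labelled untreated, also without 6 h replicate 1, and the 18 h mean was 768.5 ± 60.1 (SD, n = 2). COX7C had 483, then 1247 and 499, then 741 and 554, so that it too was lowest on the array labelled untreated. With values under 20 set to 20, these 3 and SDHC were the 4 members that were lowest there, where 10.1% of all tested probe sets were; NDUFB7 tied at the floor with an 18 h array.

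Further subunits of complex IV were also highest on 6 h replicate 1 but did not show the same order of the other arrays. COX6C had 614, then 1383 and 545, then 571 and 504, and was lowest on 18 h replicate 2. COX6A1, the form of its subunit found outside striated muscle, had 1559, then 3127 and 1505, then 1782 and 1714. COX6B1, which lies near the docking site of cytochrome c, had 1300, then 2151 and 943, then 999 and 1393. COX4I1, the common form of the largest nuclear-encoded subunit, had 1146, then 1742 and 880, then 974 and 1148. COX8A had 1123, then 1843 and 699, then 859 and 1314. For COX6B1, COX4I1 and COX8A the 18 h replicates lay on either side of, or next to, the array labelled untreated, and 6 h replicate 2 was the lowest array.

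The remaining subunits of complex IV include both forms of subunit VIIa. COX7A2, the form of its subunit in liver and most tissues, had 1065, then 1327 and 1075, then 1005 and 1120, a 1.32-fold range over the 5 arrays. Its heart and muscle counterpart COX7A1 stayed near the floor, with 24, then 76 and 25, then 41 and 9, and was also highest on 6 h replicate 1. COX5A, the partner of COX5B on the matrix side, was the only complex IV subunit that was not highest on 6 h replicate 1, with 1089, then 916 and 983, then 1029 and 858, and was highest on the array labelled untreated.

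**Figure D2:**
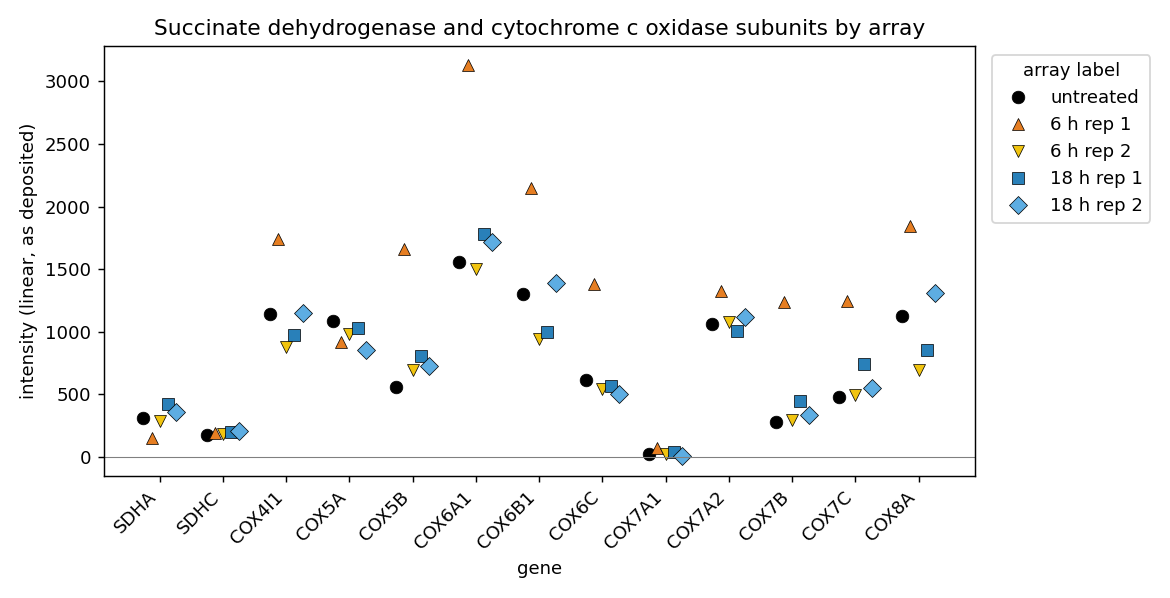
Deposited intensity, on a linear scale, of the succinate dehydrogenase (SDHA, SDHC) and cytochrome c oxidase (COX) subunits, with 1 symbol per array. The array labelled 6 h replicate 1 is highest for every COX gene but COX5A and lowest for SDHA, with 151 against 292 to 422 on the other 4 arrays.

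Complex II oxidises succinate and also belongs to the citric acid cycle, and its members differed from each other on that array, 1 above and 1 below the label untreated. SDHA, its flavoprotein, had 310, then 151 and 292, then 422 and 363. It was at least 1.5-fold below each other array on 6 h replicate 1, as was ATP5PO, while 9.19% of the tested probe sets were, and after quantile normalization SDHA alone of the members met this limit, where 7.6% of the tested probe sets did. SDHA has near-identical pseudogene copies, and its values are uncertain where the probe set detects them too. SDHC, a membrane anchor that holds the haem, had 174, then 196 and 183, then 200 and 206, a range of 1.18-fold. Both members were above the array labelled untreated on both 18 h arrays, as were 23.4% of the tested probe sets. Their 18 h arrays were also both above both 6 h arrays, as for 11.4% of the tested probe sets.

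Among the subunits of complex I, those of the NADH-oxidising arm were not alike. NDUFS1, the largest iron-sulphur subunit, had 137, then 72 and 115, then 93 and 55, and so was highest on the array labelled untreated. NDUFV3, an accessory subunit of the same module, had 164, then 121 and 154, then 110 and 99, and both 18 h arrays lay below both 6 h arrays. NDUFV2, another iron-sulphur subunit of that module, had 470, then 521 and 498, then 503 and 410, with no group apart from the others. NDUFA9, an accessory subunit near the ubiquinone site, varied least of all together with SDHC, with 695, then 707 and 657, then 778 and 773, and both 18 h arrays were above all others by a small margin. NDUFA12, also an accessory subunit, had 701, then 787 and 715, then 562 and 589, with both 18 h arrays below and both 6 h arrays above the array labelled untreated. NDUFB7, of the membrane arm, had -44, then 86 and 37, then 43 and 18, so that 2 of its values lay below the floor and its differences are bounded by it.

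Complex III and cytochrome c had 18 h means below the value labelled untreated, and the 95% interval of each of these changes included 0. All 4 members of complex III were below it on both 18 h arrays, where 35.4% of the tested probe sets were. CYC1, the cytochrome that hands electrons to cytochrome c, had 412, then 320 and 392, then 372 and 289. UQCRC1 and UQCRC2 are the core proteins on the matrix side. UQCRC1 had 1008, then 851 and 986, then 815 and 740, and UQCRC2 383, then 344 and 361, then 318 and 222, both with the 18 h arrays below both 6 h arrays. UQCRB, a ubiquinone-binding subunit, stood far above its other values on 6 h replicate 1, with 308, then 997 and 303, then 279 and 305. Its other probe set had 146, then 185 and 149, then 119 and 134, so the log2 difference of 1.69 on 6 h replicate 1 was 0.34 by that probe set. A probe set annotated to UQCRH together with a near copy was not used. CYCS, the mobile carrier that also triggers caspases when released, had 476, then 396 and 543, then 517 and 346, with replicates on either side at both times.

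Complex V, the ATP synthase, had 18 h values below the label untreated for most members. Of its 10 members, 7 were below the array labelled untreated on both 18 h arrays and 5 on both 6 h arrays, where 35.4% and 27.8% of all tested probe sets were. ATP5F1A, the alpha subunit of the catalytic head, had 1346, then 850 and 952, then 976 and 997. All 4 arrays labelled as treated, with 6 h replicate 1 among them, thus lay below and close to each other. ATP5F1B, the catalytic beta subunit of the same head, had 1463, then 1691 and 1218, then 1283 and 1654, with replicates on either side at both times. ATP5F1C, the rotor shaft, had 1148, then 1434 and 949, then 970 and 1008, and ATP5F1D, which lies at its foot, 481, then 630 and 500, then 431 and 461.

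The proton-carrying ring of ATP synthase is built from subunit c, which 3 genes encode with the same mature protein, and their arrays stood in different orders. ATP5MC2 had 343, then 707 and 372, then 237 and 278, with both 18 h arrays below the array labelled untreated and both 6 h arrays above it. ATP5MC1 had 612, then 487 and 536, then 542 and 612, and ATP5MC3 had 1581, then 1469 and 1319, then 1316 and 1369. For ATP5MC3 all 4 arrays labelled as treated were below the array labelled untreated, over a range of 1.20-fold.

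The stalk that holds the head against the ring has 3 members. ATP5PB had 393, then 384 and 351, then 331 and 236, and its other probe set 102, then 121 and 104, then 85 and 58, both lowest on 18 h replicate 2. ATP5PF had 276, then 295 and 194, then 266 and 146, with the replicates of each time far apart. ATP5PO, which links stalk and head, had 698, then 424 and 645, then 661 and 851, while its other probe set had 232, then 397 and 215, then 256 and 183. The 2 probe sets of ATP5PO thus opposed each other on 6 h replicate 1, at log2 differences of -0.72 and 0.77 from the array labelled untreated, and their fitted changes had opposite signs in all 3 comparisons, so no direction is given for the gene.

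**Figure D3:**
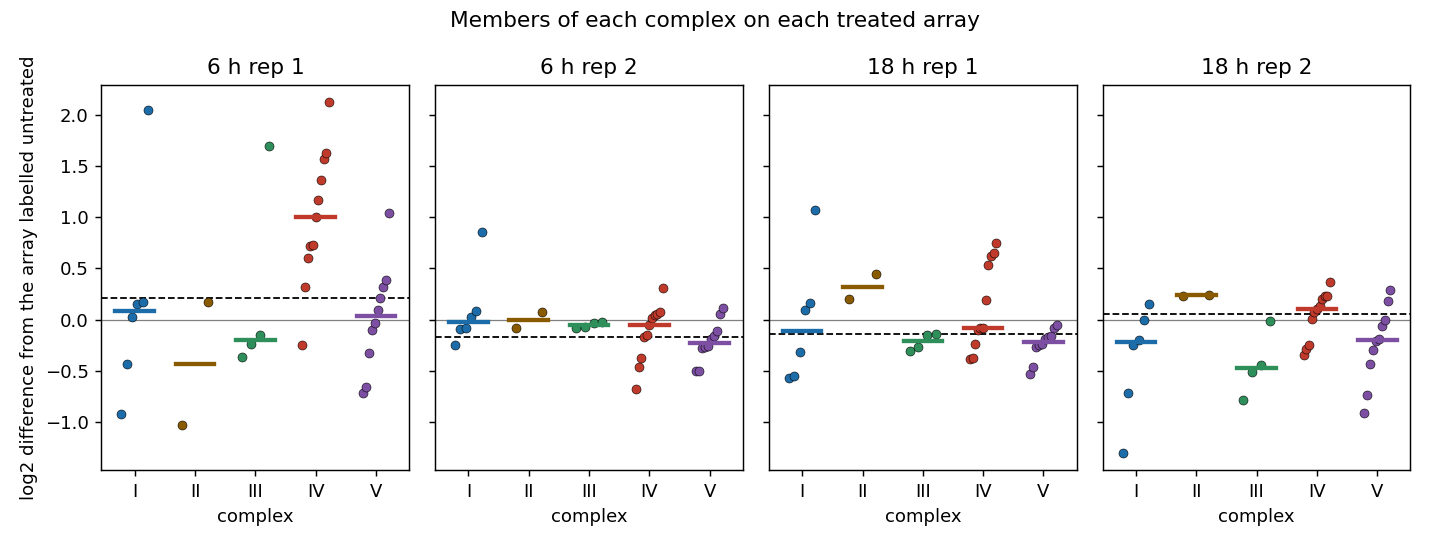
Log2 difference of each member (points) from the array labelled untreated, by complex, in 1 panel per treated array; coloured bars are the complex medians and the dashed line the median of the 690 bright tested probe sets. Complex IV has a median of 1.00 on 6 h replicate 1 and medians of -0.05, -0.08 and 0.10 on the other treated arrays.

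In the comparison of 6 h with the array labelled untreated, 18 members had a log2 change above 0 and 16 below, where 46.5% and 53.5% of the tested probe sets did. The median was 0.02 for the members and -0.00 for all tested probe sets. The 5 highest changes were in NDUFB7 at 1.45 (SE 0.80), COX7B at 1.10 (SE 1.03), COX5B at 0.94 (SE 0.64), COX7A1 at 0.84 (SE 0.92) and UQCRB at 0.83 (SE 0.85), and the 5 lowest in NDUFS1, ATP5F1A, SDHA, ATP5PO and NDUFV3, from -0.58 to -0.26. The size for NDUFB7 depends on the floor, since its value labelled untreated was -44, and it was 5.85 with a floor of 0. Both 6 h arrays were above the array labelled untreated for 11 members and below it for 12, where 19.8% and 27.8% of the tested probe sets were. With each array centred on its median these counts were 3 and 9, while the shares given here are those without centring. Centring lowered all values of 6 h replicate 2 by 0.09 and raised all those of 6 h replicate 1 by 0.16 on the log2 scale. The altered counts are therefore not a result about the members. Without 6 h replicate 1 the members had a median of -0.08, with 12 above 0 and 22 below, and UQCRB was at -0.02. In the same comparison 237 of the 690 bright probe sets were above 0 and 452 below, with a median of -0.17. Of all 5029 tested probe sets 2312 were above and 2206 below, with a median of 0. No member passed limma's test after Benjamini-Hochberg adjustment, and 0% of all tested probe sets did. At an unadjusted p under 0.05 there were also 0 members, where 1.69% of tested probe sets were higher and 1.95% lower. The member with the smallest p was ATP5F1A, with a log2 change of -0.58 (SE 0.22, unadjusted p = 0.0732, adjusted p = 1 by limma) and 2 of 2 arrays lower.

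At 18 h against the array labelled untreated, 24 of 34 members had a log2 change below 0 and 10 above, where 55.2% and 42.3% of the tested probe sets did. Of the 690 bright probe sets 420 were below 0 and 270 above. The median was -0.11 for the members, -0.02 for all tested probe sets and -0.07 for the bright ones. By complex the medians were -0.17 for I, 0.28 for II, -0.35 for III, -0.01 for IV and -0.23 for V. The 5 lowest changes were in NDUFS1 at -0.93 (SE 0.52), NDUFV3 at -0.65 (SE 0.28), UQCRC2 at -0.53 (SE 0.33), ATP5PB at -0.49 (SE 0.32) and ATP5PF at -0.48 (SE 0.55), and the 5 highest in NDUFB7, COX5B, COX7B, COX7C and SDHA, from 0.53 to 0.34. NDUFB7, whose value labelled untreated was below the floor, was at 4.85 with a floor of 0. CYC1 was at -0.33 (SE 0.31) and CYCS at -0.17 (SE 0.41). Both 18 h arrays were below the array labelled untreated for 16 members and above it for 7, where 35.4% and 23.4% of the tested probe sets were. Again 0 members passed limma's adjusted test, where 0% of all tested probe sets did, and 0 had an unadjusted p under 0.05, where 1.95% were higher and 2.49% lower. NDUFV3 had the smallest p among members (unadjusted p = 0.0937, adjusted p = 1 by limma), with 2 of 2 arrays lower. All these changes are against an array on which CXCL10 and IRF1 were about as high as at 18 h. Whether they reflect IFN-gamma was not tested. Over 6 h replicate 1, where interferon genes were low, the members had a median of -0.31 on 18 h replicate 1 and -0.43 on 18 h replicate 2. For the bright probe sets the medians were -0.27 and -0.15.

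The 18 h and 6 h arrays were also compared directly, which tests whether the times differ. The comparison shares its arrays with the other comparisons and is not independent of them. All 11 subunits of complex IV had a log2 change below 0, with a median of -0.30, against -0.03 over all tested probe sets, where 52.4% were below 0 and 45.4% above. That sign rests on 6 h replicate 1. Over that array, where interferon genes were low, complex IV had a median of -0.87 on 18 h replicate 1, with 10 of 11 below 0. On 18 h replicate 2 it was -0.87, with 11 of 11 below 0. Of the 690 bright probe sets 423 and 422 were below 0 in these comparisons, with medians of -0.27 and -0.15. Over 6 h replicate 2, complex IV had a median of 0.22 on 18 h replicate 1, with 10 of 11 above 0. On 18 h replicate 2 it was 0.15, with 8 of 11 above 0. Here 445 and 391 of the 690 bright probe sets were above 0, with medians of 0.07 and 0.09. No complex IV subunit had both 18 h arrays below both 6 h arrays. Over all members the median was -0.25, and 0.02 without 6 h replicate 1. ATP5MC2 at -0.996 (SE 0.41), NDUFB7 at -0.92 (SE 0.65), UQCRB at -0.91 (SE 0.70), COX6C at -0.69 (SE 0.56) and COX7B at -0.66 (SE 0.84) had the lowest changes, and COX7B was at 0.37 without 6 h replicate 1. SDHA had the highest, at 0.89 (SE 0.42), followed by ATP5PO at 0.52 (SE 0.32), whose other probe set was at -0.43, NDUFA9 at 0.19 (SE 0.17), ATP5MC1 at 0.17 (SE 0.19) and ATP5F1A at 0.13 (SE 0.18).

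Both 18 h arrays lay above both 6 h arrays for 6 members and below them for 7, where 11.4% and 13.6% of the tested probe sets did. For 4 members both 6 h arrays lay on one side of the label untreated and both 18 h arrays on the other, where 5.01% of the tested probe sets did so. Those below both 6 h arrays were ATP5F1D, ATP5MC2, ATP5PB, NDUFA12, NDUFV3, UQCRC1 and UQCRC2. No member passed limma's adjusted test, where 0% of all tested probe sets did, and 0 members had an unadjusted p under 0.05, where 2.23% were higher and 2.09% lower. The smallest p was that of ATP5MC2 (unadjusted p = 0.0874, adjusted p = 0.940 by limma), with 2 of 2 arrays at 18 h below both at 6 h.

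The precision of these comparisons was limited by the number of arrays. The 95% interval of a member's log2 change against the array labelled untreated reached a median of 1.15 to either side, a 2.22-fold difference, and 0.65 for the most closely measured member. For SDHA at 18 h it ran from -1.23 to 1.90, for COX7B from -2.69 to 3.57, and for NDUFA9 from -0.49 to 0.81. Differences of the size seen for most members were therefore not detectable.

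**Figure D4:**
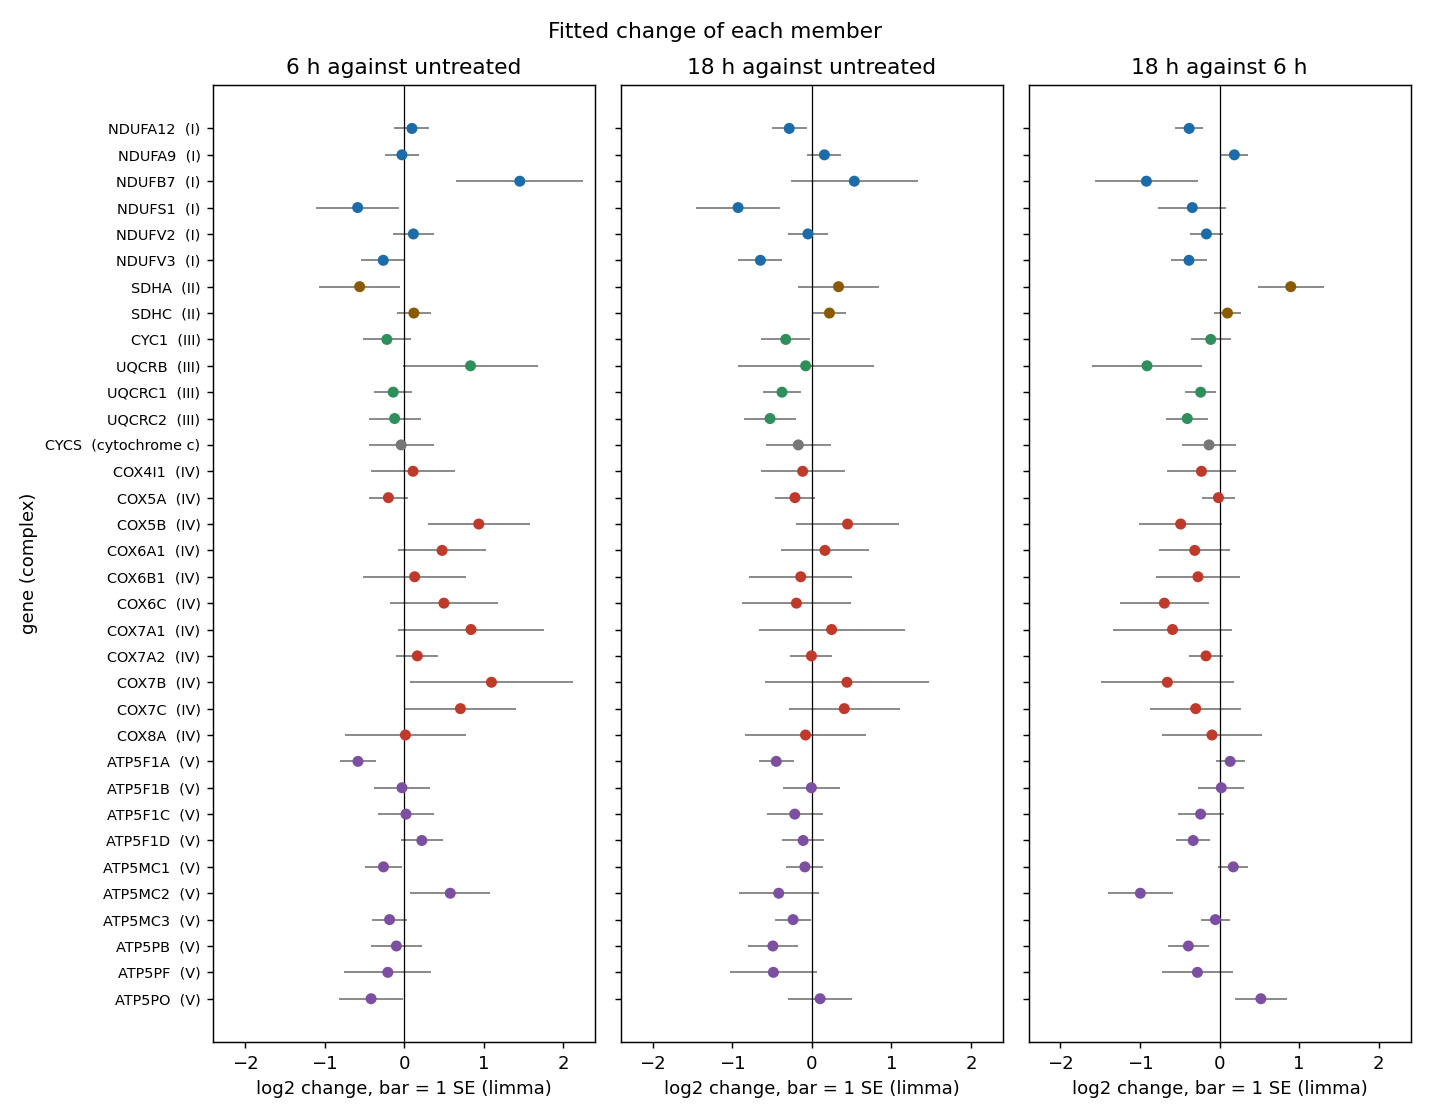
Fitted log2 change of each member in the 3 comparisons; points are limma estimates coloured by complex and bars are 1 SE to either side. No member passed the adjusted test, and the widest bars belong to genes such as COX7B (SE 1.03) whose 6 h arrays lie far apart.

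Other genes of mitochondrial energy metabolism were read from 8 lists, in which 0 genes passed limma's adjusted test in either direction in the 3 comparisons. The 12 measured genes of the citric acid cycle and pyruvate dehydrogenase had a median log2 change of -0.34 at 18 h against the array labelled untreated. Of these 12, 8 were below 0, as were 55.2% of the tested probe sets. The largest changes there were in IDH3B (126, then 7 and 83, then 65 and 8), SUCLG1 and PDHX. Among 6 assembly factors of the respiratory chain the median was 0.04. The copper chaperone COX17, which supplies complex IV, had 139, then 436 and 144, then 232 and 210, an order of arrays like that of COX7B. COX11, another copper-delivery factor, had 19, then 50 and 28, then 26 and 25, and LRPPRC, which stabilises mitochondrial mRNAs, had 126, then 52 and 108, then 89 and 78. The 6 carriers and channels of ATP export all had an 18 h log2 change below 0, as did 55.2% of the tested probe sets, with a median of -0.19 against -0.02. One of them, SLC25A4, was near the floor, with 45 and 15 at 18 h. The phosphate carrier SLC25A3 had 1572, then 1483 and 1101, then 1174 and 1212, and the uncoupling protein UCP2 and the outer membrane channel VDAC1 had the other largest changes.

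Fuel oxidation and mitochondrial upkeep gave the remaining lists. The 12 genes of fatty acid oxidation and other electron entry had a median of -0.16 at 18 h, and the medium-chain dehydrogenase ACADM had 54, then 35 and 35, then 29 and 18, while the thiolase ACAA2 had 182, then 122 and 230, then 64 and 106. HADHA was measured above the floor on 2 arrays. The 9 genes of mitochondrial translation had -0.23. The largest changes there were in MRPL58 at -0.75, TSFM at -0.35 and MRPL28, which opposed them at 0.60. The median was -0.35 for the 11 genes of import and chaperones. In the latter, PMPCA, a subunit of the peptidase that removes import signals, had 351, then 246 and 238, then 142 and 60. It was lower on all 4 arrays labelled as treated, and TOMM20 and TRAP1 came next. The 12 genes of transcription and mitochondrial DNA upkeep had -0.16, with NRF1, SP1 and ESRRA differing most and their replicates far apart. The 5 antioxidant genes had 0.16, with NNT, PRDX3 and GPX1 differing most.

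Promoter sequences were read because transcription of these genes is known to involve the activators NRF1 and GABPA. RefSeq gave the promoter of 26 of the 34 members (build GRCh38.p14), and the 250 bases before each start were searched on both strands. The NRF1 motif (GCGCA, any base, then GCGC) stood in 6 of 26 (23.1%), against 5.53% of 27305 promoters, and the GABPA motif CCGGAAG in 7 of 26 (26.9%), against 8.82%. The YY1 motif AAGATGGCG stood in 1, against 0.641% of all. The interferon element (GAAA, any 2 bases, then GAAA) stood in 0, against 3.07%. The 27305 promoters were not limited to genes measured here or matched to the members, so these shares are not a matched background. The members with a GABPA motif were ATP5PF, COX5B, COX6A1, COX6B1, COX8A, NDUFB7 and NDUFS1, and 6 of these 7 were above the array labelled untreated on 6 h replicate 1, as were 15 of all 26. Of the 6 with an NRF1 motif (ATP5F1C, ATP5PO, NDUFA12, NDUFA9, SDHA and UQCRC1), 3 were above and 3 below. A match describes letters and not binding, and no match says only that these letters are not in this window.

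The upstream stretches are shown for the complex IV subunits that were lowest on the array labelled untreated, and for SDHA, which opposed them on 6 h replicate 1. Each runs 5′ to 3′ on the plus strand, ends at the base before the annotated start, and has matches to the motifs above in capitals. COX7B and COX7C hold none, COX5B holds 1 GABPA match at -37 to -31, and SDHA holds 4 NRF1 matches that begin at -166, -117, -68 and -19. No matches shown overlap each other.
COX7B, GRCh38.p14 chrX:77899218-77899467, plus strand: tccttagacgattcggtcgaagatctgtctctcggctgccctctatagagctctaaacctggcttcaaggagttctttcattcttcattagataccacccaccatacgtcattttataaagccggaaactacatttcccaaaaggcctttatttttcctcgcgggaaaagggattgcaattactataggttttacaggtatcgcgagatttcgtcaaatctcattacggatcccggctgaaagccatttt
COX7C, GRCh38.p14 chr5:86617691-86617940, plus strand: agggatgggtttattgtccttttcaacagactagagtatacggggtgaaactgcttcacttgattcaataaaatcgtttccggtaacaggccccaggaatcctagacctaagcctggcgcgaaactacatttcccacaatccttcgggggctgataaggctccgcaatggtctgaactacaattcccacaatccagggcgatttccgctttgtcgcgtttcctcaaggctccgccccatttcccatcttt
COX5B, GRCh38.p14 chr2:97645812-97646061, plus strand: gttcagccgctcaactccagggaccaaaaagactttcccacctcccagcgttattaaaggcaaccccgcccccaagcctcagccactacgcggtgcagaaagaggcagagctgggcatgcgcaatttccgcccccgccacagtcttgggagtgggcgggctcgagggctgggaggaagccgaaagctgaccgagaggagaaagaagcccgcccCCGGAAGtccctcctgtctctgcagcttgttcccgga
SDHA, GRCh38.p14 chr5:218070-218319, plus strand: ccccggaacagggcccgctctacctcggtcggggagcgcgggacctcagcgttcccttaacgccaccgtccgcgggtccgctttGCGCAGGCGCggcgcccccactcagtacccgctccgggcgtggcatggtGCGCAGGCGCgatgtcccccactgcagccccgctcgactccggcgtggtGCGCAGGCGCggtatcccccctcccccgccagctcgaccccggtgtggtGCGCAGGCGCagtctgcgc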

How the data were processed

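Trizol-extracted total RNA was biotinylated and hybridised, per the labels' protocols. The authors deposited intensities per probe set as whole numbers on a linear scale, with negative values, so some quantity had been subtracted; the software, background step and scaling are not given in the sources used here. Of 7018 probe sets, 5649 named 1 gene, 321 several and 1048 none, and 0 symbols needed updating. The authors' list of induced genes holds intensities too; 97 of its probe sets are in the table and 0 are members.

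Intensities below a floor of 20 were raised to it and log2(value + 1) computed, which understates changes of dim genes. The 5029 probe sets above 20 on an array were tested by limma 3.58.1 under R 4.3.3 (moderated linear model over all 5 arrays, 2 residual degrees of freedom, prior 1.24), with Benjamini-Hochberg adjustment at 0.05. With 1 untreated array, its variance was taken to equal that of the treated groups. Same-numbered arrays deviated oppositely (correlation -0.29 over probe sets), and the main fit did not pair them. The value range was widest on 6 h replicate 1 and 18 h replicate 2 (SD 410 and 350), which enters this correlation. It therefore cannot decide whether same-numbered arrays belong together.

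The members and lists were chosen with earlier results of these data known. Named members were the 5 highest and 5 lowest of each comparison, SDHA, CYC1 and CYCS, and from each further list the 3 largest changes at 18 h. Limits of 1.5-fold, the bright set and the promoters shown were chosen after values were seen.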

Additional observations from a re-analysis of the deposited data

Results flagged for a closer look

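For 4 members both 6 h arrays lay on one side of the array labelled untreated and both 18 h arrays on the other, as for 5.01% of the tested probe sets. From 6 h to 18 h the log2 change was -0.996 for ATP5MC2, -0.38 for NDUFA12, -0.33 for ATP5F1D and 0.89 for SDHA. The direct comparison of the times, which tests this difference, gave an adjusted p of 0.940 by limma for each of the 4. For SDHA the side at 6 h rests mainly on replicate 1, with 151 against 310 on the array labelled untreated, while replicate 2 had 292. No group had the 4 arrays that a search for single outlying arrays needs, and the authors' list of induced genes holds 0 members.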

How the results depend on the processing

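In all 3 comparisons, 0 members passed the threshold under every alternative run, which included 4 left-out arrays, an intensity trend and both blocks. Over the named members the lowest adjusted p under any alternative was 0.210. For all probe sets the count went from 0 to 100 at 6 h, 97 at 18 h and 1 for 18 h against 6 h when dim probe sets were not filtered out, and 90 of the 100 and 90 of the 97 had every treated array at the floor; 0 members were among them. The members' median at 18 h against untreated, -0.11, became -0.13 with a floor of 0 or of 100, -0.084 with median centring, -0.015 with the replicate block and 0.021 with the crossed replicate block, which was added after seeing the data; the crossed block turned its sign, the spread of this median between the 18 h arrays was 0.014 (SD), and the cause was not tested. Leaving out arrays gave medians from -0.14 to -0.11 for that comparison, -0.08 to 0.17 for 6 h against untreated and -0.41 to 0.024 for 18 h against 6 h, where the highest came without 6 h replicate 1. Members above the array labelled untreated on both 6 h arrays numbered 3 with median centring against 11. Centring shifts all probe sets of an array alike, so this fall is not a result about the members. Changes of UQCRB, CYCS, COX7B and CYC1 reversed sign with an array left out. At 6 h UQCRB ran from -0.024 to 1.69 and CYCS from -0.26 to 0.19, the first bound of UQCRB coming without 6 h replicate 1. At 18 h against untreated CYCS ran from -0.46 to 0.12. From 6 h to 18 h COX7B ran from -1.68 to 0.37, CYC1 from -0.29 to 0.071 and CYCS from -0.42 to 0.16. Choosing probe sets by their highest value altered no member.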
